A study of Mus musculus with 10 samples.

Results

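Expression of 10 genes that mark fibroadipogenic progenitors (FAPs) and the matrix they make, Pdgfra, Dcn, Lum, Ly6a, Fbn1, Mfap5, Pi16, Dpt, Gsn and Fstl1, was read by symbol from a table of 24608 gene symbols. All 10 symbols were found in the table. The 10 libraries came from adult C57BL6 mice whose muscle stem cells (MuSCs) were sorted as YFP-positive cells 3 days after injury by cardiotoxin (CTX), with 3000 cells in each library. All mice carried Pax7 CreERT2/+ and Rosa26 YFP. Control mice were Trpm7+/+ and Trpm7 cKO mice were Trpm7 flox/flox, with 5 libraries of each. Both genotypes follow 5 daily injections of tamoxifen (TMX), which releases the Cre in cells that use the Pax7 promoter. Trpm7 cKO replicates 4 and 5 have a number in common in their labels, whose meaning is not given there. Nothing in the labels says that the other libraries come from separate animals, so p-values measure the spread between these libraries.

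FAPs are mesenchymal cells of the muscle interstitium that multiply after injury, feed regenerating fibres with signals and matrix, and can become fibroblasts or fat cells. They do not belong to the Pax7 lineage, and the usual way to tell them from MuSCs is the receptor PDGFRA together with Sca-1, the surface protein that Ly6a encodes. The paper's protocol for MuSCs of uninjured limbs stains Sca-1, CD45 and CD31 in one colour and collects CD106-positive cells, whereas the cells for RNA-seq were gated on YFP. Several of the 10 genes are also used outside FAPs: Gsn and Fstl1 in many cell types, and Ly6a in endothelial and blood-forming cells.

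Libraries were made with CEL-Seq2, which reads the 3′ end of each transcript and counts molecules by their unique identifiers (UMIs). Control libraries held between 914361 and 1097709 counts and Trpm7 cKO libraries between 205986 and 581121, with no overlap (two-sided exact permutation p = 0.00794, the lowest that the splits of 10 libraries allow). Levels are given below as raw counts and as counts per 1e6 counts of a library (CPM) after TMM normalization, in which 1 count was worth about 1 CPM in control libraries and between 1.66 and 5.52 CPM in Trpm7 cKO libraries. MuSC identity genes were detected in every library, and their summed level, 2668 to 4815 CPM in Trpm7 cKO libraries and at most 3317 CPM in control libraries, overlapped. For Trpm7 itself the log2 fold change was -0.09 (standard error 0.20, edgeR adjusted p = 0.723). Counts of a 3′ end do not show whether an exon upstream of it was removed, so in these libraries the genotypes rest on the labels. The paper reports the deletion from genetic analysis, Trpm7 mRNA of freshly isolated MuSCs and TRPM7 immunofluorescence of MuSCs on myofibers.

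Of the 10 genes, 6 passed the filter on low counts (Dcn, Ly6a, Fbn1, Dpt, Gsn and Fstl1) and 4 did not (Pdgfra, Lum, Mfap5 and Pi16). All 6 were higher in Trpm7 cKO libraries with an adjusted p below 0.05, a result that 24.6% of all 7753 tested genes share. A log2 fold change above 1.5 in addition was met by 5 of them, all but Gsn, against 8.49% of all tested genes, and none passed that fold in the other direction, as 3.53% of tested genes did. Their median log2 fold change was 2.15, where the median over all tested genes was -0.01. Dpt reached the filter through Trpm7 cKO libraries alone and the other 5 genes also through control libraries, so that for Dpt passing the filter and being higher are not independent. Without Dpt, the other 5 genes had a median log2 fold change of 2.09. Over all tested genes, those that reached the filter in all 5 control libraries were called higher in 18.5% of cases and lower in 29.7%. Those that needed Trpm7 cKO libraries to reach it were higher in 49.4%. Normalized levels did not overlap between genotypes for 4 of the 6 (Fbn1, Dpt, Gsn and Fstl1), as for 34.5% of tested genes. In these sorted populations more cells of a type and more RNA per cell cannot be told apart.

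**Figure D1:**
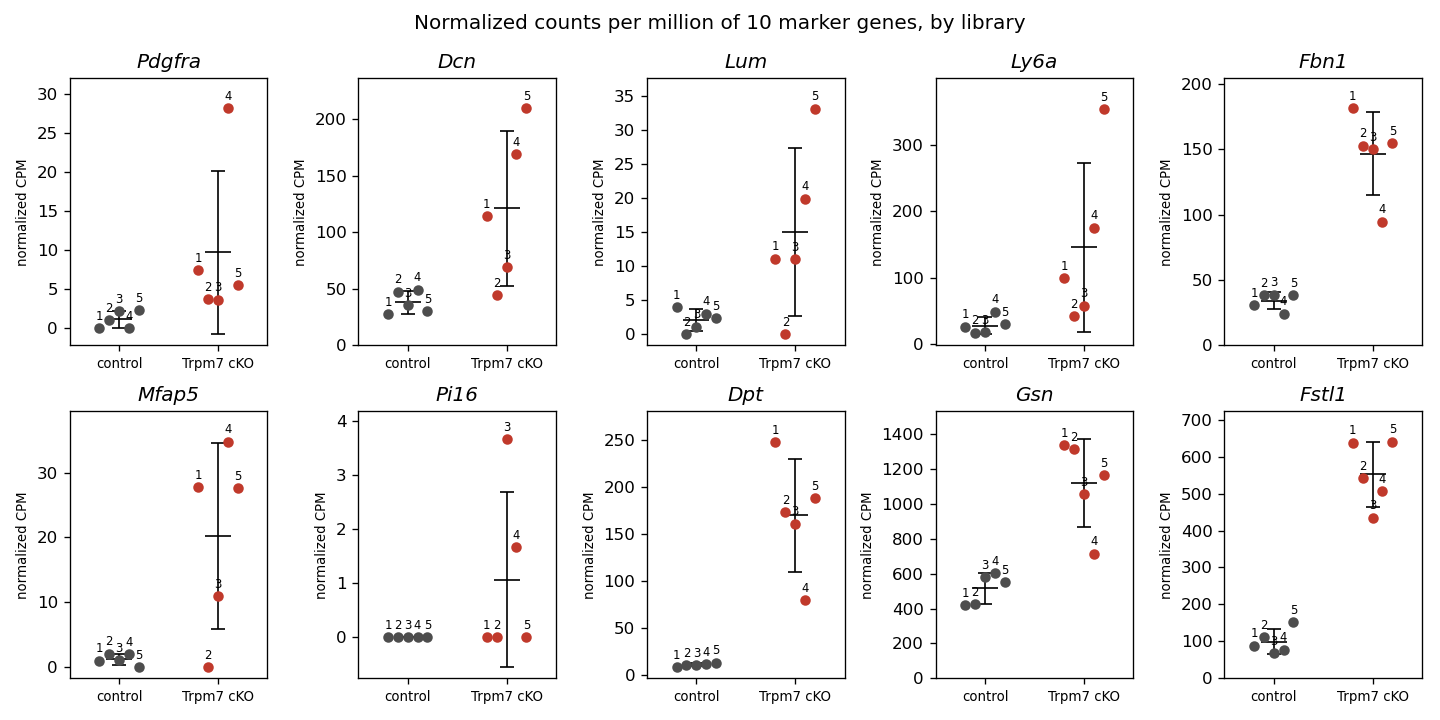
Normalized CPM of the 10 markers (vertical axes, a scale for each gene) in 5 control and 5 Trpm7 cKO libraries; points are libraries with their replicate number, and the bar and whiskers give mean ± SD. Levels of Fbn1, Dpt, Gsn and Fstl1 are apart in both genotypes, as are those of Pdgfra, most of which rest on at most 2 counts, whereas Dcn, Ly6a, Lum and Mfap5 overlap through Trpm7 cKO replicate 2.

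Pdgfra, the receptor for PDGF that marks FAPs, lies on chromosome 5 of GRCm38 (75152292 to 75198215). Control replicates 1 to 5 gave 0, 1, 2, 0 and 2 molecules. Trpm7 cKO replicates 1 to 5 gave 4, 2, 1, 17 and 1. All control libraries and Trpm7 cKO replicates 2, 3 and 5 were thus within 3 molecules, the floor used here, the raw counts overlapped, and 1 Trpm7 cKO library carried 68.0% of the Trpm7 cKO counts. As normalized levels this was 1.099 ± 1.12 CPM for control and 9.68 ± 10.4 CPM for Trpm7 cKO (SD, n = 5 each), and the exact two-sided permutation p was 0.00794, not adjusted for the 10 genes. The normalized levels did not overlap, but in replicates 3 and 5 of Trpm7 cKO they are those of 1 molecule, worth 3.65 and 5.52 CPM at their depth, so that this separation cannot be told apart from counting error in those libraries. Thinned to the smallest total, the exact permutation p was 0.0238. From the pooled 5 and 25 counts the level was 11.1 times higher, with a 95% exact interval of 4.18 to 37.2 that covers counting error only. Without Trpm7 cKO replicate 4 that ratio was 4.95 (1.43 to 19.2).

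Ly6a, on chromosome 15 (74994877 to 74998031, minus strand), encodes Sca-1. In controls 1 to 5 there were 27, 17, 17, 49 and 26 molecules. In Trpm7 cKO 1 to 5 there were 54, 23, 16, 106 and 64. Trpm7 cKO replicate 5 was highest once depth was taken into account, at 353 CPM, while replicate 2, at 42.3 CPM, lay below control replicate 4, at 49.2 CPM. The means were 28.4 ± 12.8 CPM for control and 146 ± 127 CPM for Trpm7 cKO (SD, n = 5 each), and the log2 fold change was 2.21 (standard error 0.57, edgeR adjusted p = 0.0097). Of the last 500 bases of its transcript, 32.6% recur in transcripts of related genes of the Ly6 family such as Ly6c1, Ly6c2 and Ly6i, so that its count could hold reads of those genes. Ly6c1, which endothelial cells use, stood at a log2 fold change of 2.30 (standard error 0.45).

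Pi16, on chromosome 17 (29317680 to 29330593), marks a subset of fibroblasts and FAPs thought to act as a reservoir. It had 0 counts in all 5 control libraries. Among Trpm7 cKO libraries, replicates 3 and 4 had 1 count each and the others had 0. Both genotypes were under the floor of 3 counts per library, and a difference was not detectable at this depth (two-sided exact permutation p = 0.444).

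The small leucine-rich proteoglycans Dcn and Lum bind fibrillar collagen and set the spacing of its fibrils. They are neighbours on chromosome 10, Dcn from 97479609 to 97518143 and Lum from 97565128 to 97572703, with 46984 bases and no annotated gene between them. Dcn gave 28, 46, 33, 49 and 26 molecules in control replicates 1 to 5. Trpm7 cKO replicates 1 to 5 gave 62, 24, 19, 102 and 38. Decorin RNA was thus present in every library of both genotypes, at 38.00 ± 9.85 CPM for control and 121 ± 68.5 CPM for Trpm7 cKO (SD, n = 5 each). Trpm7 cKO replicates 4 and 5 were highest, at 169 and 209.7 CPM, and replicate 2, at 44.2 CPM, lay within the control range of 27.8 to 49.2 CPM. The log2 fold change was 1.61 (standard error 0.35, edgeR adjusted p = 0.0018).

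Lum was near the floor. Control replicates 1 to 5 gave 4, 0, 1, 3 and 2 molecules, against 6, 0, 3, 12 and 6 for Trpm7 cKO replicates 1 to 5. Replicate 2 of both genotypes had no Lum count. The level was 2.08 ± 1.57 CPM for control and 15.01 ± 12.3 CPM for Trpm7 cKO (SD, n = 5 each) (two-sided exact permutation p = 0.0476, not adjusted). When all libraries were thinned to the smallest total that p was 0.127, and without Trpm7 cKO replicate 5 it was 0.0635. Pooled counts of 10 and 27 gave a ratio of 6.01 with a 95% exact interval of 2.82 to 13.9.

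Fbn1 and Mfap5 build microfibrils, the scaffold on which elastic fibres form and on which latent TGF-β is stored. Fbn1, on chromosome 2 (125300594 to 125507993, minus strand), encodes fibrillin-1, the main chain of the microfibril. Molecules numbered 31, 37, 36, 24 and 33 over control replicates 1 to 5. They numbered 98, 83, 41, 57 and 28 over Trpm7 cKO replicates 1 to 5. Normalized levels were 33.99 ± 6.42 CPM (SD, n = 5) and 147 ± 31.7 CPM (SD, n = 5), and the lowest Trpm7 cKO library, replicate 4 at 94.4 CPM, was above the highest control library at 38.6 CPM. The log2 fold change was 2.09 (standard error 0.20, edgeR adjusted p = 9.05e-08).

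Mfap5, on chromosome 6 (122505845 to 122529290), encodes a small glycoprotein that binds fibrillin. Control replicates 1 to 5 gave 1, 2, 1, 2 and 0 molecules, against 15, 0, 3, 21 and 5 for Trpm7 cKO replicates 1 to 5. Control libraries were at or under 2 counts, and Trpm7 cKO replicate 2 had none although its total was the second largest of its genotype. The level was 1.23 ± 0.851 CPM for control and 20.2 ± 14.3 CPM for Trpm7 cKO (SD, n = 5 each) (two-sided exact permutation p = 0.0476, not adjusted). Leaving out any 1 control library took this exact p to 0.0873 for Mfap5 and to 0.0794 to 0.0952 for Lum. The groups are then unequal in size, so these values are not directly comparable with the exact p from all libraries. Pooled counts of 6 and 44 gave a ratio of 16.3 with a 95% exact interval of 6.92 to 46.8. In this gene, Lum and Pdgfra, which the filter removed, a fit with no filter beyond 1 count over 21922 genes gave edgeR adjusted p values of 8.89e-10, 3.43e-04 and 5.02e-05, and that of Pi16 was 0.126.

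Dpt showed the largest change of the 6 tested genes. It encodes dermatopontin, a matrix protein that binds decorin and TGF-β, and lies on chromosome 1 (164796644 to 164824266). There the transcript Gm32569 overlaps its 3′ end on the opposite strand, so that how reads in the overlap were assigned depends on the strand setting, which is not given. Control replicates 1 to 5 had 8, 10, 9, 11 and 11 counts. Trpm7 cKO replicates 1 to 5 had 134, 94, 44, 48 and 34 counts. Every Trpm7 cKO library held more Dpt molecules than every control library even before scaling, which was true of no other of the 10 genes. Normalized, the level was 10.3 ± 1.76 CPM for control and 170 ± 60.4 CPM for Trpm7 cKO (SD, n = 5 each), and Dpt rose 16.1-fold (log2 fold change 4.01, standard error 0.28, edgeR adjusted p = 5.12e-09). Among all tested genes, 99.5% had a lower log2 fold change. This rank is not independent of the filter, which Dpt reached through Trpm7 cKO libraries alone.

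Gsn encodes gelsolin, which severs and caps actin filaments inside cells and, as a secreted form, clears actin outside them. On chromosome 2 (35256380 to 35307892), it gave 423, 410, 541, 599 and 476 molecules in control replicates 1 to 5. Trpm7 cKO replicates 1 to 5 gave 723, 713, 289, 431 and 211. Normalized levels, 515 ± 87.0 CPM for control and 1117 ± 252.1 CPM for Trpm7 cKO (SD, n = 5 each), did not overlap, although Trpm7 cKO replicate 4, at 714 CPM, was the nearest to the highest control library at 601 CPM. The log2 fold change was 1.11 (standard error 0.17, edgeR adjusted p = 2.35e-05). As counts with no scaling, Gsn did not differ beyond its error (log2 fold change -0.05, edgeR adjusted p = 0.907), and neither did Dcn (0.43, edgeR adjusted p = 0.3). Unscaled counts also carry the depth of each library and are not an amount per cell.

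Fstl1, on chromosome 16 (37776873 to 37836514), encodes a secreted glycoprotein of the SPARC family that binds ligands of the BMP and TGF-β family. Control replicates 1 to 5 gave 89, 108, 63, 77 and 132 molecules. Trpm7 cKO replicates 1 to 5 gave 345, 294, 119, 306 and 116. The level was 99.5 ± 33.99 CPM for control and 552 ± 88.0 CPM for Trpm7 cKO (SD, n = 5 each), without overlap, and the log2 fold change was 2.47 (standard error 0.20, edgeR adjusted p = 1.77e-08). With no scaling, Fstl1, Fbn1, Ly6a and Dpt were still called higher, at log2 fold changes of 1.33, 0.93, 0.95 and 2.84. In that fit 4.9% of all tested genes were called higher and their median stood at -1.15. Scaling on MuSC identity genes took that median to -0.28. There all 6 tested markers were called higher, from 0.80 for Gsn to 3.66 for Dpt, beside 15.2% of all tested genes.

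**Figure D2:**
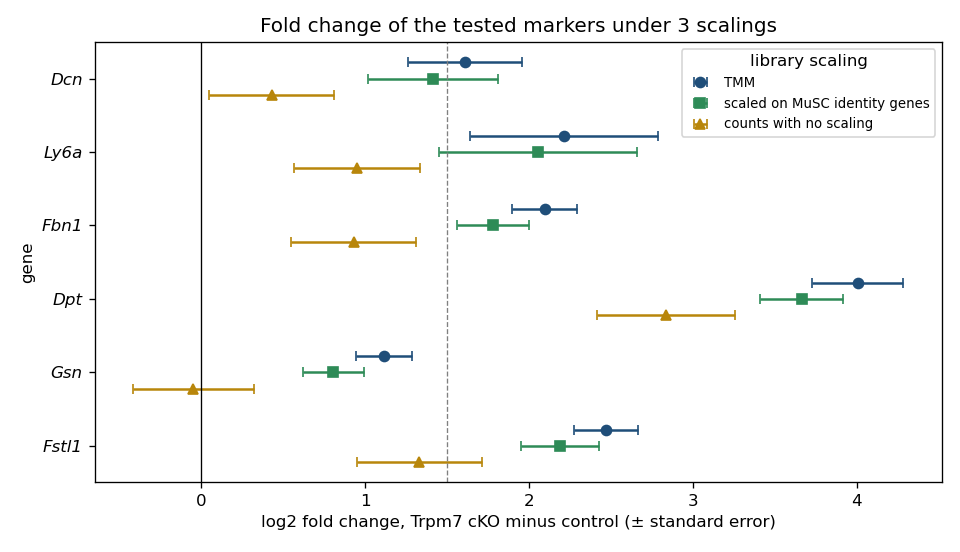
Log2 fold change, Trpm7 cKO minus control, with its standard error (horizontal axis) for the 6 tested markers under TMM, scaling on MuSC identity genes and no scaling; the dashed line is the 1.5 threshold. Dpt lies furthest right under each of the 3 scalings and Gsn falls to -0.05 with no scaling.

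Across the 5 Trpm7 cKO libraries the markers did not vary alike. The grouping that follows was made after the values were seen and is a description without a test. Pdgfra, Dcn, Lum, Ly6a and Mfap5 were highest in replicate 4 or 5, and replicate 2 was the lowest or within 1 CPM of the lowest for each of them. For Pdgfra, Lum and Mfap5 the counts in replicates 2 and 3 were at or under the floor of 3, so their order there is within counting error. Mfap5 was also as high in replicate 1 (79.7% of its highest library) as in replicate 5 (79.3%). In replicate 2, Dcn stood at 21.1% and Ly6a at 11.98% of their level in replicate 5, and Lum and Mfap5 had no count. Fbn1, Dpt and Gsn were highest in replicate 1 and lowest in replicate 4, where they stood at 52.2%, 32.1% and 53.5% of the level in replicate 1. Fstl1 varied least, with its lowest library at 67.9% of the highest.

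Sums of other marker lists are set beside these 2 patterns. Endothelial markers were highest in replicate 5, at 899 CPM, with replicate 2 at 18.8% of that, and leukocyte markers were highest in replicate 4, with replicate 2 at 22.6% of that. MuSC identity genes were highest in replicate 1 and lowest in replicate 4, at 55.4% of replicate 1. Replicates 1 and 4 were also highest and lowest for the sum of other FAP and fibroblast markers (2753 and 1836 CPM). The same held for small leucine-rich proteoglycans listed besides Dcn and Lum (1173 and 439 CPM). Erythroid markers followed neither pattern, being highest in replicate 3 (3277 CPM) and lowest in replicate 1 (146 CPM). Over the 10 libraries, after the mean of each genotype was subtracted from log2 CPM, Dcn and Ly6a had a Pearson r of 0.84, Dpt and Gsn 0.85, and Ly6a and Fbn1 -0.41. These 10 points share their depth and normalization, and 2 of them a label number. The part of other cells in these levels was not tested.

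**Figure D3:**
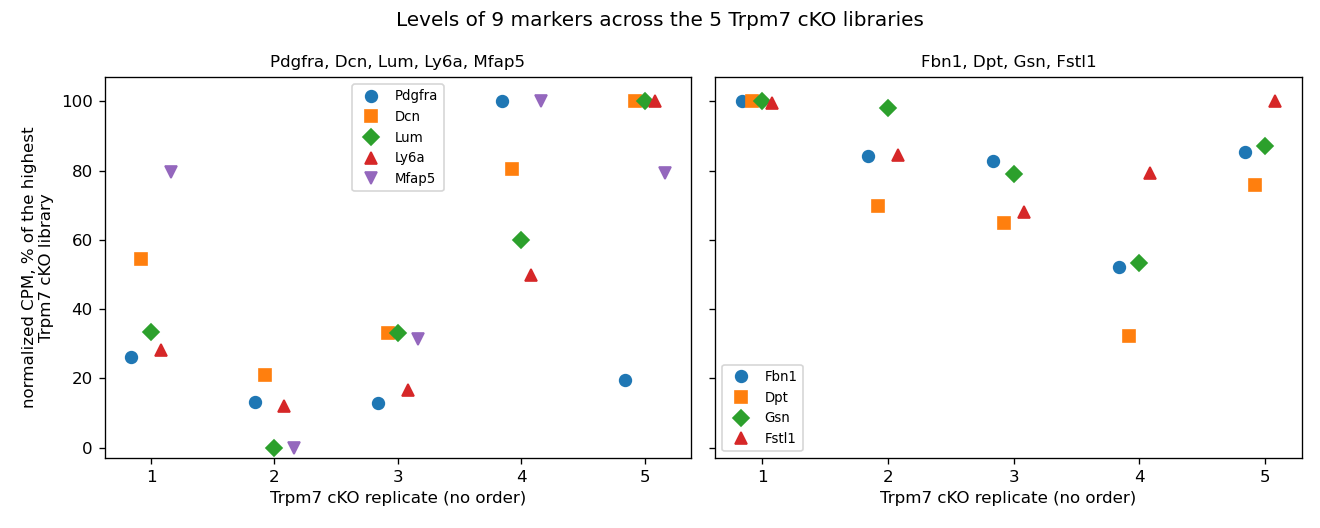
Normalized CPM of 9 markers in the 5 Trpm7 cKO libraries as a percent of the highest library (vertical axis), with replicates side by side in no order (horizontal axis). The left group is low in replicate 2 and high in replicate 4 or 5, whereas Fbn1, Dpt and Gsn on the right are lowest in replicate 4, Dpt at 32.1%. Pdgfra, Lum and Mfap5 rest on few counts.

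Leaving out Trpm7 cKO replicates 4 and 5 together, which was tried with the values known, lowered the log2 fold change of Dcn to 0.98 and that of Ly6a to 1.22, both still with an adjusted p below 0.05 (0.00607 and 0.00782 from edgeR). The same step left Fbn1 at 2.23, Dpt at 4.21, Gsn at 1.24 and Fstl1 at 2.42. With the counts of these 2 libraries summed into 1 sample, Dcn was at 1.47 and Ly6a at 1.95. All 6 tested markers were then called higher, beside 25.0% of all tested genes. The range over fits that each left out 1 library was 1.35 to 1.84 for Dcn, 1.77 to 2.51 for Ly6a, 3.77 to 4.20 for Dpt and 1.97 to 2.23 for Fbn1.

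Markers of other cells that a sort of injured muscle could hold moved with genotype too. Of 20 leukocyte and macrophage markers, 15 were tested and called higher, but 10 of these reached the filter only with Trpm7 cKO libraries, which favours a higher call. The other 5, Lyz2, C1qb, C1qc, Ctss and Fcer1g, reached it in every control library. The list had summed levels of 381 to 634 CPM in control and 1384 to 6126 CPM in Trpm7 cKO libraries. Ptprc, which encodes CD45, rose from 8.003 ± 4.70 CPM (SD, n = 5) to 56.7 ± 26.1 CPM (SD, n = 5). Of 12 endothelial markers, 4 were tested and called higher. All 4 needed Trpm7 cKO libraries to reach the filter, which favours a higher call, as 49.4% of all such genes were called higher. In the fit with no filter beyond 1 count, 12 were higher, beside 13.1% of all genes in that fit. Over the whole list the levels had sums of 11.8 to 92.6 CPM in control and 169 to 899 CPM in Trpm7 cKO libraries. Pecam1, which encodes CD31, had 5.29 ± 7.13 CPM for control and 64.0 ± 50.2 CPM for Trpm7 cKO (SD, n = 5 each). The 10 FAP and matrix markers summed to 608 to 820 CPM in control and 1824 to 2776 CPM in Trpm7 cKO libraries, mostly from Gsn and Fstl1. Among genes of fat cells, Adipoq and Plin4 had 0 counts in all 10 libraries, whereas Fabp4, a fatty acid carrier of fat cells that capillary endothelium and macrophages also use, rose from 42.9 ± 27.2 to 486 ± 295 CPM (SD, n = 5 each; log2 fold change 3.45, edgeR adjusted p = 0.000765). Among the 15 MuSC identity genes, 14 were tested, 9 being higher and 2, Myod1 and Itga7, lower, beside 24.6% and 24.1% of all tested genes. With no scaling 2 were higher and 4 lower (14.3% and 28.6%), beside 4.9% and 66.6% of all tested genes. Pax7, the defining factor of MuSCs, rose from 206 ± 33.7 CPM (SD, n = 5) to 474 ± 122 CPM (SD, n = 5). Its log2 fold change of 1.19 is relative to the other genes, and its raw counts overlapped (167 to 224 in control and 101 to 296 in Trpm7 cKO libraries).

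**Figure D4:**
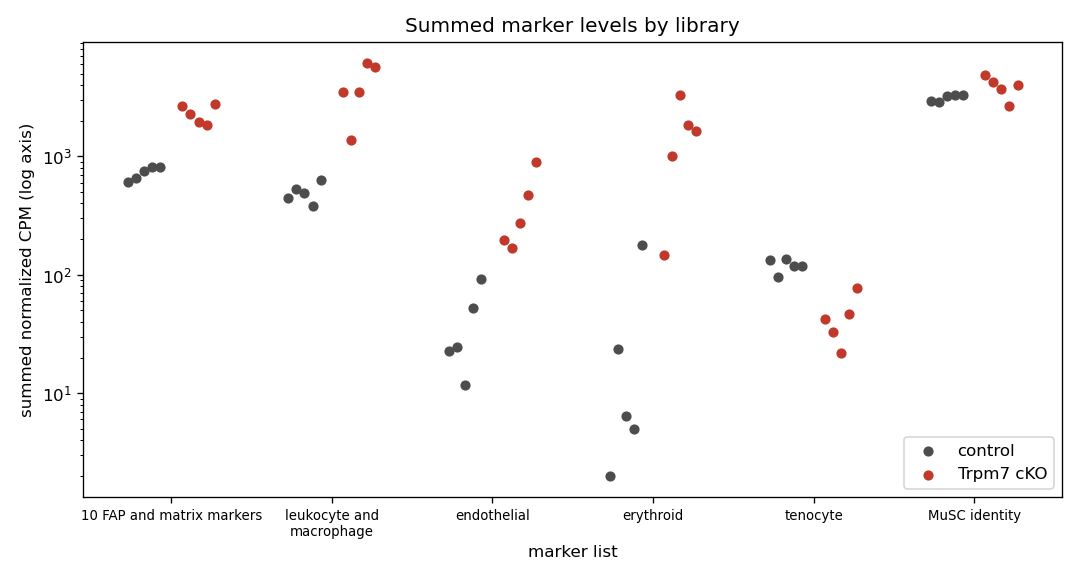
Summed normalized CPM of 6 marker lists (vertical log axis) in each control and Trpm7 cKO library. The sums of FAP and matrix, leukocyte and endothelial markers are higher in every Trpm7 cKO library than in every control library, the tenocyte sum, most of which is Scx in control libraries, is lower, and MuSC identity genes overlap.

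Genes of the same roles were taken from lists chosen with earlier results of these data known. Over 6 lists of matrix, fibroblast and PDGF genes, 47 of 87 genes were tested, 35 being higher and 4 lower. Of these 47, 17 reached the filter only with Trpm7 cKO libraries, and among the other 30 there were 19 higher and 4 lower (63.3% and 13.3%, against the 18.5% and 29.7% of all genes that reached it in control libraries). With no scaling 20 of the 47 were higher and 9 lower (42.6% and 19.1%), where 4.9% of all tested genes were higher and 66.6% lower. Among 30 other FAP and fibroblast markers, 14 were tested, with 9 higher, 3 lower and a median log2 fold change of 1.66, and with no scaling 5 were higher and 5 lower (35.7% each way, beside the same 4.9% and 66.6% of all tested genes). Of the 9 higher, 5 needed Trpm7 cKO libraries to reach the filter (Islr, Adamts5, Tnfaip6, Bmp4 and Pcolce), and the 9 genes that reached it in control libraries had 4 higher, 3 lower and a median of 0.25. Bmp4, a BMP ligand, rose from 9.89 ± 2.33 to 135 ± 53.1 CPM (SD, n = 5 each). Tnfaip6, whose product modifies hyaluronan, rose from 11.7 ± 4.87 to 106 ± 35.6 CPM (SD, n = 5 each). Cd34 and Islr rose by log2 fold changes of 2.34 and 2.99. The 3 that fell were Prrx1, a transcription factor of limb mesenchyme (-1.07), Ccn4, a secreted matricellular protein (-1.80), and Il33, an alarmin that FAPs release (-1.09). Of the 16 under the filter, 15 had a higher mean in Trpm7 cKO libraries. Of all 16867 gene entries under the filter, 9465 had a higher mean there and 4704 a lower one. Cxcl14 stood at 1.45 and 23.6 CPM, Scara5 at 1.67 and 18.3 CPM and Thy1 at 7.26 and 23.9 CPM in control and Trpm7 cKO, none of them tested. Among the least detected were Osr1, Twist2 and Dpp4, with at most 4, 1 and 2 counts in any library.

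Matrix assembly genes moved mostly up. Of 10 small leucine-rich proteoglycans listed besides Dcn and Lum, 4 were tested and rose, Aspn among them having reached the filter only with Trpm7 cKO libraries. Bgn, the proteoglycan closest to decorin, rose from 32.6 ± 8.75 to 349 ± 126 CPM (SD, n = 5 each; log2 fold change 3.38, standard error 0.26, edgeR adjusted p = 2.13e-08). Aspn, Prelp and Ogn rose by 2.55, 2.06 and 0.87. Of 18 elastic fibre and microfibril genes, 10 were tested and 9 rose, but 8 of the 10 needed Trpm7 cKO libraries to reach the filter, and only Loxl1 and Ltbp1 (0.42) reached it in control libraries. The 9 included the lysyl oxidases Loxl1 (2.25) and Loxl2 (3.48), which cross-link elastin and collagen, Fbln2, a fibulin (2.37), and Ltbp4, which tethers latent TGF-β to microfibrils (2.66). Emilin1, at 0.61, did not pass the test.

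Collagen genes were split. Of the 9 chains of collagens I, III, V and VI, all were tested, with 5 higher, 1 lower and 3 not called. All 9 reached the filter in control libraries, and 55.6% were higher and 11.1% lower, against 18.5% and 29.7% of all such genes. With no scaling 1 was higher and 2 were lower (11.1% and 22.2%), beside 4.9% and 66.6% of all tested genes. The chains of type I collagen moved in opposite directions: Col1a1 rose from 161 ± 42.3 to 747 ± 242 CPM (log2 fold change 2.22, edgeR adjusted p = 1.2e-06), while Col1a2 fell from 1767 ± 283 to 1092 ± 398 CPM (SD, n = 5 each; log2 fold change -0.69, edgeR adjusted p = 0.00771). Both directions held under each of the 10 other models, scalings and filters tried with all libraries. Col5a3, Col6a1 and Col5a1 rose by 1.88, 1.41 and 1.41.

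Of the ligands for PDGFRA and its sister receptor, Pdgfa and Pdgfb were tested and neither passed (log2 fold changes of 0.09 and 0.11, standard errors of 0.15 and 0.18). Pdgfc, Pdgfd and Pdgfrb were under the filter, Pdgfrb with 1.68 ± 2.10 CPM in control and 20.4 ± 11.1 CPM in Trpm7 cKO libraries (SD, n = 5 each). In the list of fibrogenic and adipogenic differentiation genes, 8 of 15 were tested and rose, 3 of them (Postn, Ccn2 and Fabp4) having needed Trpm7 cKO libraries to reach the filter. The other 5 reached it in control libraries, where 18.5% of all such genes were called higher. With no scaling 4 of the 8 were called higher (50%) and 0 lower, beside 4.9% and 66.6% of all tested genes. Ccn2, a matricellular target of TGF-β, rose by 3.46 on the log2 scale, Cebpb, a transcription factor of early adipogenesis and inflammation, by 2.31, Lpl, lipoprotein lipase, by 1.46, and Tnc, tenascin C, by 1.29.

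**Figure D5:**
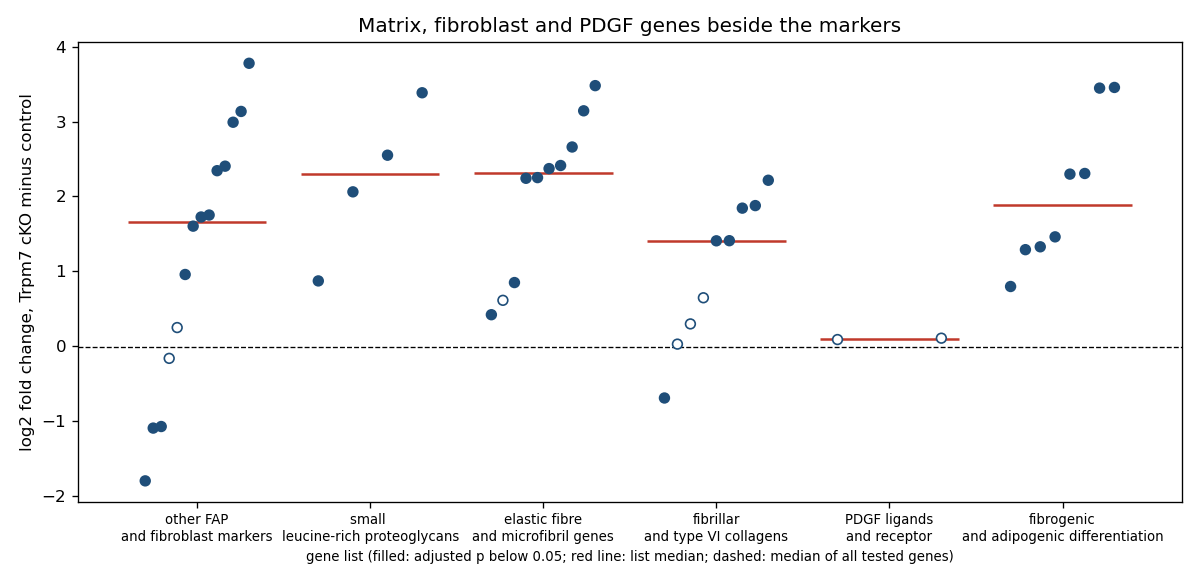
Log2 fold change, Trpm7 cKO minus control (vertical axis), of each tested gene in 6 lists; filled points have an adjusted p below 0.05, red lines are list medians and the dashed line is the median of all tested genes. Most filled points lie above the dashed line, PDGF genes lie near 0, and Ccn4, Il33, Prrx1 and Col1a2 are the filled points below 0.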

How the data were processed

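MuSCs of 5 control and 5 Trpm7 cKO libraries were measured by 3′-end RNA-seq. The authors extracted barcodes and UMIs and removed UMI duplicates with UMI-tools 1.1.4, trimmed with Trim Galore 0.6.10, aligned to GRCm38 with HISAT2 2.2.1 and counted with featureCounts 2.0.6, and deposited raw counts of molecules per gene. The annotation release and strand setting of the counting are not given in the sources used here. The 24620 gene entries hold 24608 symbols, with 12 further lines of symbols already present. These lines stayed in the data as entries of their own, and a symbol named here stands for its line with most counts.

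Counts were analysed in R 4.3.3 with edgeR 4.0.16: filterByExpr (minimum count 10, minimum total 15), TMM, a robust quasi-likelihood fit with genotype as the only term, and Benjamini-Hochberg adjustment over 7753 genes. Standard errors were derived from the F statistic. A gene was called at an adjusted p below 0.05, and the study's added threshold, a log2 fold change beyond 1.5, is named where used. Single levels were compared by two-sided exact permutation tests over the 10 libraries. Alternatives used DESeq2 1.42.0, limma-voom 3.58.1, other scalings and filters, thinning, the replicate number as a block and each library left out. Totals of 205986 to 1097709 counts set the precision, and intervals and floors cover counting error only. Within each genotype all libraries differed from each other beyond sampling noise (chi-square per degree of freedom at least 1.47).

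The 10 markers and the gene lists were chosen with earlier results of these data known. Named genes are the 10 markers, up to 4 genes of each matrix, fibroblast or PDGF list with the smallest adjusted p, those called in the other direction and single genes of the lists that were chosen after their values were seen. The 5 genes most like the markers and Trpm7 were named too. Replicate numbers are shared by both genotypes but number different libraries, and deviations of same-numbered libraries correlated at -0.12 to 0.18, so they were not treated as pairs. Gene positions and shared 3′ sequence, in matches of 31 bases over the last 500 transcript bases, came from GENCODE M21 on GRCm38.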

Additional observations from a re-analysis of the deposited data

Results flagged for a closer look

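Pdgfra in Trpm7 cKO replicate 4, at 28.2 normalized CPM, lay far from the other 4 Trpm7 cKO libraries, which ranged from 3.65 to 7.39 CPM. The gap to the nearest of them was 0.848 of the whole range, above Dixon's value of 0.71 for 5 samples. It was the 1 sample to stand out among 20 sets of 5 libraries examined, and about 1 in 20 such sets passes by chance.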

How the results depend on the processing

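All 6 tested markers were called higher under each model, scaling, filter, thinning and left-out library, except Dcn and Gsn when counts were used with no scaling, where Gsn took a log2 fold change of -0.049. Of the settings tried on the matrix, fibroblast and PDGF genes, this one moved their numbers by over 1.5 times, to 20 higher and 9 lower beside 4.9% and 66.6% of all tested genes, and it lowers all genes alike because Trpm7 cKO libraries hold fewer counts. With no filter beyond 1 count, 9 of the 10 markers were called higher, beside 13.1% of the 21922 genes in that fit. Over all settings, the share of tested genes called higher ranged from 4.9% with no scaling to 27.9% with total counts alone. The number of markers with an exact p below 0.05, not adjusted, was 9, including Pdgfra, Lum and Mfap5, which the filter on low counts removed. The share of all genes with such a p was not computed, but levels of 34.5% of tested genes did not overlap between genotypes. The number of markers ranged from 5 to 9 as each library was left out, with 5 whenever a control library was removed. Leaving out a library makes the groups unequal in size, which changes the splits behind the exact p. Such p-values are therefore not directly comparable with those from 5 libraries of each genotype. With the replicate number as a block, 6 markers were called higher and 0 lower, beside 23.4% and 22.7% of all tested genes, and no marker call changed. Depth limits Pdgfra, Lum, Mfap5 and Pi16, for which 3 counts equal about 3 CPM in control and 4.97 to 16.6 CPM in Trpm7 cKO libraries.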

Other observations

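Lists of other cell types in the same libraries held further differences. Of 8 tenocyte markers 1 was tested: Scx, a transcription factor of tendon cells, fell by 2.67 on the log2 scale (standard error 0.23, edgeR adjusted p = 3.68e-08), from 90 to 132 counts in control libraries to 4 to 12 in Trpm7 cKO libraries. The other 7 were under the filter, with at most 3 counts in each control library and up to 13 in Trpm7 cKO libraries, and all 7 had a higher mean level in Trpm7 cKO, such as Thbs4 with 0.63 and 6.89 CPM and Cilp2 with 0 and 4.34 CPM. Of all 16867 gene entries under the filter, 9465 had a higher mean in Trpm7 cKO and 4704 a lower one. Of 6 mesothelial and epithelial markers none passed the filter, and for Msln the control libraries held 9 to 38 counts but no Trpm7 cKO library more than 1. Of 6 erythroid markers 3 were tested and called higher. All 3 needed Trpm7 cKO libraries to reach the filter, which favours a higher call, as 49.4% of all such genes were called higher. In the fit with no filter beyond 1 count, 4 were higher, beside 13.1% of all genes in that fit. The list had sums of 1.99 to 178 CPM in control and 146 to 3277 CPM in Trpm7 cKO libraries, which overlap. Of 10 pericyte and smooth muscle markers 4 were tested, with 2 higher and 1 lower. Of 8 Schwann and glial markers 2 were tested, with Pmp22 higher by 2.01 on the log2 scale.

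The tested genes outside the 10 markers that varied most like the mean of the 6 tested markers, after removal of each genotype's mean, were Hdgfl2, Rrm2b, Vsir, Gm44250 and Tollip, with Pearson r between 0.909 and 0.946 over 10 libraries and 7747 genes compared. Since the markers themselves varied in more than one way across Trpm7 cKO libraries, each correlated with the mean of the other 5 at only 0.03 to 0.41.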
